A study of Saccharomyces cerevisiae with 24 samples.

Results

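The proteins of the cytosolic large ribosomal subunit were followed through the yeast metabolic cycle as 81 genes of the 6562 in the table. They are all genes whose standard name in the R64 annotation is RPL with a number and an optional A or B, or RPP0, RPP1A, RPP1B, RPP2A or RPP2B. All 81 were present, and 0 were listed at 0 in any library. The subunit catalyses peptide bond formation on a core of ribosomal RNA, to which core proteins and the flexible P stalk, which recruits translation factors, are bound. The core genes here were 10 without a partner and 33 pairs, most of them left by the ancient duplication of the yeast genome and named A and B. The 5 P-stalk genes include a further 2 A/B pairs. The transcription factors Rap1, Fhl1 and Ifh1 drive ribosomal protein genes in budding yeast, and the cells make ribosomes in bulk when they grow. In the metabolic cycle, a dense culture held on limited glucose alternates in step between phases of high and low oxygen use.

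The cells were Saccharomyces cerevisiae of the laboratory line CEN.PK in minimal medium, with no other genotype or treatment given in the labels. Total RNA was sequenced at 0, 20, 60, 110, 140, 180, 200, 210, 220, 230, 240 and 260 min, with 1 library per time. With no replicates, every error given for a fit is the scatter of libraries around a fitted time curve. It says nothing of how much cultures vary. For a fitted range, it also leaves out the choice of the highest and lowest fitted times. The reads by which the authors scaled their libraries numbered 4376480 at 20 min to 5976430 at 0 min, as recovered from the values. Levels are RPKM, reads per kilobase of gene span scaled to library size, in bulk RNA. Levels are therefore relative to the other RNA in the library. A lower level could come from fewer cells with the transcript, less of it per cell or more of other RNA. These cannot be told apart. Spans include introns, and at least 35 of the 81 spans hold bases beyond a coding span, so the RPKM of such a gene is understated beside one without. The least covered member in any library was RPL22B at 260 min, with 63.6 reads.

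Large-subunit genes shared a sharp maximum at 230 min, and most were at their minimum at 260 min. They took 1.26% of the reads at 20 min (95% Wilson interval 1.25 to 1.27%) and 3.78% at 200 min (3.76 to 3.80%). At 230 min the share was 10.7% (10.7 to 10.8%), and at 260 min it was 1.26% (1.25 to 1.27%). Such intervals cover counting error only.

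The median of the 81 genes was 567, 189, 324, 407, 422, 465, 503, 698, 1096, 1489, 1059 and 161 RPKM at the 12 times in order. The first library was already well above the second. The median was higher in each library from 60 to 230 min than in the one before it. Under median-ratio scaling, the median log2 change of the genes from 180 to 200 min was -0.011. The highest library was 230 min for 75 genes, against 16.4% of all 6493 genes tested. It was 220 min (17.5% of all genes) for RPL8A, RPL9B, RPL16A and RPL22B, and 240 min for RPL41A and RPL41B. The lowest library was 260 min for 54 genes (19.9% of all genes), 20 min for 25 (26.1% of all genes) and 60 min for RPL41A and RPL41B. All 81 genes were higher at 230 than at 260 min, as were 54.1% of all genes. The level at 230 min exceeded that at 260 min by a median of 9.13-fold, with a span from 1.41-fold for RPL41B to 27.8-fold for RPL6B. For 34 of the 81 genes it was at least 10-fold, against 7.36% of all genes.

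**Figure D1:**
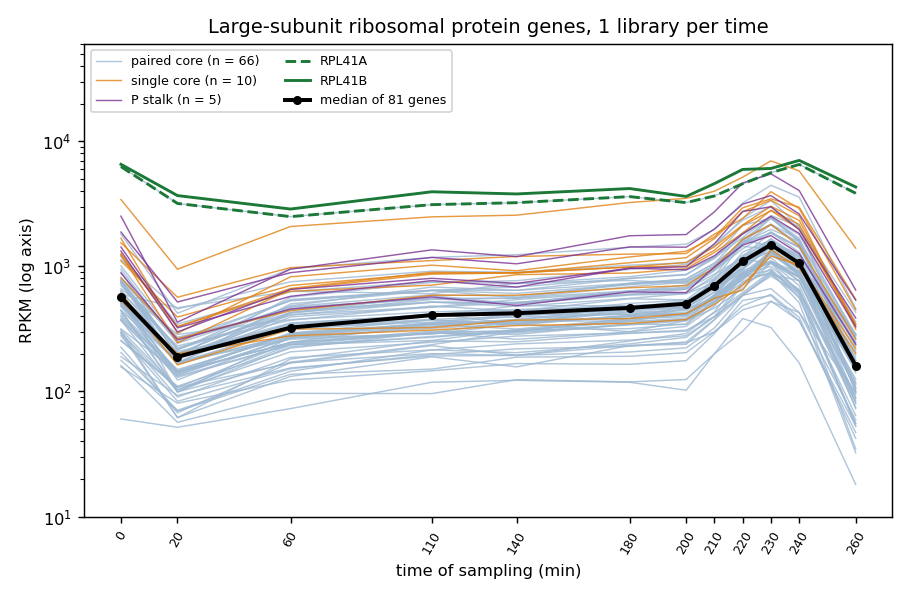
RPKM of the 81 large-subunit genes on a log axis against the time of sampling in minutes, with 1 library per time and no error bars. Thin lines are single genes coloured by class, green lines are RPL41A and RPL41B, and the black line is the median, which peaks at 1489 RPKM at 230 min. RPL41A and RPL41B lie far above the median and move the least.

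Taken step by step on the log2(RPKM + 1) scale, the step from 240 to 260 min was the largest, with a median of -2.73 (SD over genes 0.58), and 79 of 81 genes were at least 2-fold lower. So were 25.1% of all genes tested. From 0 to 20 min the median was -1.70 (SD 0.44) and 76 genes were at least 2-fold lower, against 19.7% of all genes. From 20 to 60 min it was 0.94 (SD 0.33) and 33 genes were at least 2-fold higher, against 12.2% of all genes. The approach to the peak was spread over the steps ending at 210, 220 and 230 min, with medians of 0.48, 0.63 and 0.43. At 210 and at 220 min all 81 genes stood above their previous library (53.5% and 39.2% of all genes), and at 230 min 77 did (54.7% of all genes). Between 230 and 240 min the median was -0.48 and 79 genes were lower (40.4% of all genes). Each of these steps compares 1 library with 1 other, so none has a test.

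The 56 small-subunit genes (RPS) had nearly the same medians, -1.72 from 0 to 20 min, 0.63 from 210 to 220 min and -2.85 from 240 to 260 min. Of them, 55 were highest at 230 min. The 34 genes named MRPL, which encode the large subunit of the mitochondrial ribosome, moved the other way at the end of the course. Their median was 1.20 from 230 to 240 min and 0.78 from 240 to 260 min, and 31 of 34 were highest at 260 min, as were 15.8% of all genes.

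**Figure D2:**
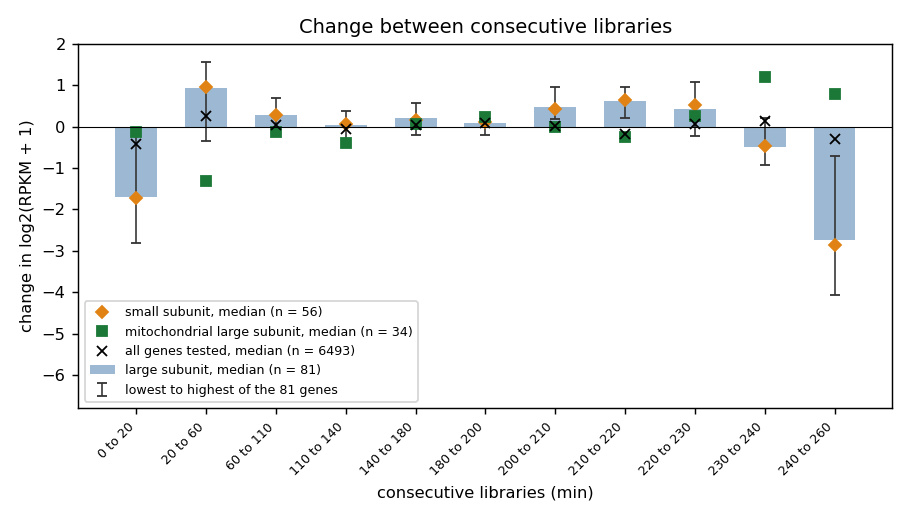
Change in log2(RPKM + 1) between consecutive libraries for the large-subunit genes (bars, median, with whiskers from the lowest to the highest gene) and the medians of small-subunit genes, mitochondrial large-subunit genes and all genes tested (symbols). The bar from 240 to 260 min reaches -2.73, and the mitochondrial median there is above 0.

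Whether each gene varied over the course was tested with a spline of 4 degrees of freedom in minutes, fitted in limma to all genes with p-values adjusted over all of them. Of the 81 genes, 14 passed an adjusted p of 0.05 (17.3%), against 20.7% of all genes tested, so in this fit the share called was near the background. Without adjustment 68 members (84.0%) and 40.8% of all genes were under a p of 0.05. The median fitted range, the highest minus the lowest fitted value, was 2.35 on the log2 scale, against 1.10 over all genes tested. The fitted range was at least 1 for 79 members and 54.7% of all genes. Between the highest and the lowest library the median range was wider, 3.22, against 1.64 over all genes tested. The median scatter about the curve was also wide, 0.71 against 0.37. This scatter includes any misfit of the curve. The fitted maximum was at 220 min for most members, though 75 were observed highest at 230 min. The 14 genes were RPL6B, RPL7B, RPL9B, RPL12A, RPL13A, RPL14B, RPL16A, RPL21B, RPL22A, RPL22B, RPL27B, RPL33B, RPL36A and RPL37A, each of them 1 copy of a pair. In 12 pairs 1 copy passed, which was the copy with the lower mean in 11, and in RPL22 both passed. Mean and call come from the same 12 libraries, so this count is no test. In RPL14, RPL9 and RPL21 the other copy narrowly missed, with adjusted p of 0.0503, 0.0516 and 0.0543 (limma). In each of these pairs the copy that missed had the wider fitted range. In the rest of the 12 the copy that passed had it.

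The count moved with the stiffness of the curve and with single libraries, and so did the share of all genes. It was 78 (96.3%) with 5 degrees of freedom, against 39.9% of all genes. With 3 it was 0 (0 at an unadjusted p of 0.05, limma), against 2.23% of all genes. It was 0 without 220, 230 or 240 min (4, 6 and 19 at an unadjusted p of 0.05, limma), 1 without 210, 3 without 260 and 8 without 200 min, where 4.27 to 15.1% of all genes passed. It was 79 (97.5%) without 0 or 20 min, against 51.0% and 43.2% of all genes. Without 60 min it was 57 (70.4%, against 32.3%), and without 110 or 140 min it was 37 (45.7%, against 27.3% and 25.4%). Leaving a library out also moves the knots of the curve.

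The core genes without an A/B copy shared the peak time of the group. Of these 10 genes, 0 passed (limma, 4 at an unadjusted p of 0.05). RPL10 (YLR075W, chromosome XII, 282927 to 283592), which joins the subunit late and is needed for its activity, had 3419.7, 948, 2084, 2488, 2566, 3241, 3497, 3989.6, 5168, 6970.2, 5797 and 1399.8 RPKM in time order. It was the highest of the 81 genes at 230 min, and its lowest value, at 20 min, was 948 RPKM. Its fitted range was 1.70 ± 0.76 (SE; limma adjusted p = 0.173).

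RPL3 (YOR063W, chromosome XV, 444686 to 445849), which lies near the catalytic centre, had 292 RPKM at 20 min, 3467 at 230 min and 545 at 260 min. RPL5 (YPL131W, chromosome XVI, 303121 to 304014), which binds the smallest RNA of the subunit, had 245, 3383 and 314 RPKM at the same times. RPL5 had the widest fitted range of the 10, 2.69 ± 0.88 (limma adjusted p = 0.0849). At 240 min they were at 2969.8 and 2537 RPKM.

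RPL25 (YOL127W, chromosome XV, 80348 to 81190), at the rim of the exit tunnel of the growing protein, had 265, 2154 and 263 RPKM at 20, 230 and 260 min. RPL39 (YJL189W, chromosome X, 75933 to 76474), a small protein of the tunnel wall, had 201, 1209.8 and 221 RPKM. RPL29 (YFR032C-A, chromosome VI, 223258 to 223437) had 646 RPKM at 220 min and 1356 at 230 min, the only member at least 2-fold higher in the second of those libraries (background 7.45% of all genes). It was among the 4 members with the narrowest fitted range, 1.67 ± 0.60 (limma adjusted p = 0.192). The observed values of RPL29 were not among the narrowest. Its highest library was 8.33-fold its lowest, against a median of 9.37-fold over the members. The fitted low lay at 140 min and the observed one at 20 min.

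RPL28 (YGL103W, chromosome VII, 310967 to 311927), in which mutations give resistance to cycloheximide, had 393, 2789 and 343 RPKM at these 3 times. RPL30 (YGL030W, chromosome VII, 439091 to 439638), whose protein controls the splicing of its own transcript, had 329.6, 3025 and 345 RPKM. RPL32 (YBL092W, chromosome II, 45978 to 46370) had 329, 2814 and 332 RPKM, and RPL38 (YLR325C, chromosome XII, 781143 to 781379) had 567, 3952 and 450.2 RPKM. All of them, like RPL3, RPL5, RPL10, RPL25, RPL29 and RPL39, peaked at 230 min. Of the 10, 7 had their minimum at 20 min and 3 at 260 min.

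The P-stalk genes shared the peak time of the group and differed in level and in how far they moved. Their highest library was from 7.09-fold (RPP1A) to 15.3-fold (RPP2B) their lowest. RPP0, the protein that anchors the stalk, had 1427, 322, 576, 769.8, 683, 967, 939, 1216, 1816, 2515, 1835 and 328 RPKM in time order. RPP2B was the highest of the 5, at 358 RPKM at 20 min, 5491 at 230 min and 647 at 260 min. RPP1A had 519, 3680.0 and 537 RPKM, RPP2A had 299, 2998 and 387, and RPP1B had 258, 1762 and 239. All 5 peaked at 230 min, and 4 of them were lowest at 20 min, where 26.1% of all genes were. RPP2B was 7.04-fold lower at 20 than at 0 min, the largest such fold of the 81 genes, whose median was 3.26-fold. Of the 5 genes, 0 passed (limma, against 20.7% of all genes), with fitted ranges of 2.15 to 2.37. At an unadjusted p of 0.05 there were 4 (80.0%), against 40.8% of all genes. These acidic proteins form dimers of a P1 with a P2 protein, and the A and B forms of RPP1 and of RPP2 are related rather than near-identical.

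**Figure D3:**
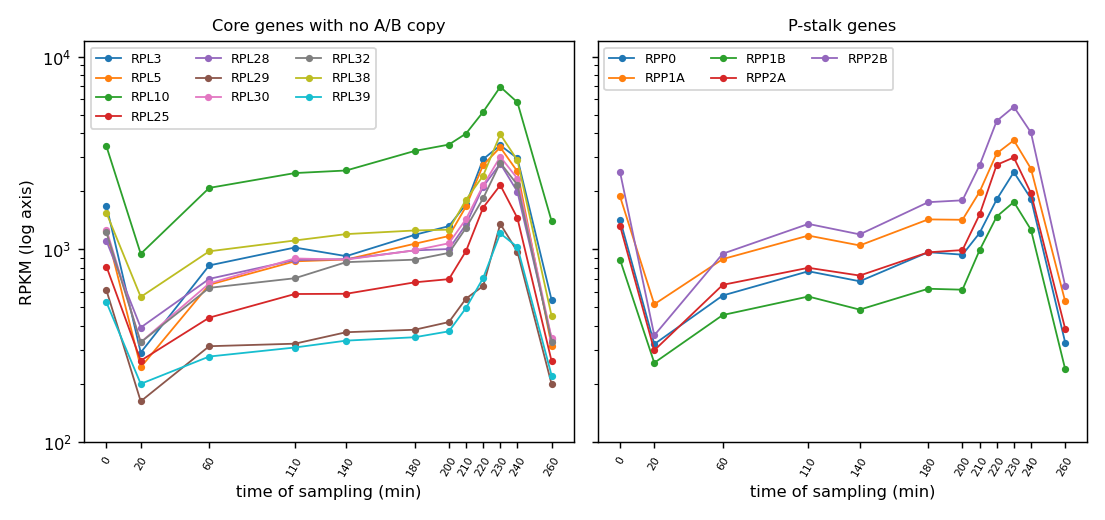
RPKM on a log axis against the time of sampling in minutes for the 10 core genes without an A/B copy and the 5 P-stalk genes, 1 library per time. Each line is 1 gene, and all 15 peak at 230 min. RPL10 is the highest of the left panel, with 6970.2 RPKM at 230 min, and RPP2B of the right panel.

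RPL41A and RPL41B, which encode the smallest ribosomal protein, differed from the other 79 genes in the times of their maximum and minimum. RPL41A (YDL184C, chromosome IV, 130407 to 130484) had 6269.8, 3185, 2499, 3115, 3229.6, 3612, 3235, 3655, 4578, 5615, 6528 and 3840.1 RPKM in time order. RPL41B (YDL133C-A, chromosome IV, 221724 to 221801) had 6546, 3680.4, 2874, 3948, 3794, 4191, 3623, 4589, 5959, 6064, 7036 and 4312 RPKM. Both had their maximum at 240 min and their minimum at 60 min. At 260 min they were 1.46-fold and 1.41-fold below their level at 230 min, where the median member was 9.13-fold below. Their fitted ranges were the narrowest, 0.89 ± 0.62 and 0.81 ± 0.45 (limma adjusted p = 0.538 and 0.633), and neither passed in any alternative. With means of 4113 and 4718 RPKM over the 12 libraries, they were the most abundant members per kilobase, followed by RPL10 and RPP2B at 3464 and 2289.8 RPKM. Each gene spans only 78 bases, and the reads have 50, so this level is scaled up from few bases.

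At the other end, RPL22B (YFL034C-A, chromosome VI, 64243 to 64932) was the lowest member, with 60.2, 51.7, 72.9, 118, 123, 118, 102, 200.4, 383, 325, 169 and 18.0 RPKM in time order. It was 1.16-fold lower at 20 than at 0 min, the smallest such fold of all members. It passed the test (range 3.67 ± 0.61, limma adjusted p = 0.00981), and in 16 of 21 alternatives, the exceptions being 3 degrees of freedom and the fits without 220, 230, 240 or 260 min. RPL22 protein is known to hold back splicing of RPL22B transcripts. Next in order came RPL18B, RPL33B and RPL7B, with means of 185, 237 and 244 RPKM. Across the 81 genes, a lower mean level went with a wider fitted range (Spearman rho = -0.37, and -0.32 over the 79 without RPL41A and RPL41B). This is a description across genes that share the same 12 libraries.

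The widest fitted ranges were those of RPL13A (4.03 ± 0.81, limma adjusted p = 0.0234) and RPL6B (3.97 ± 0.80, adjusted p = 0.0244), which passed in 16 and 15 of 21 alternatives. Leaving out 210, 220, 230 or 240 min, or a curve with 3 degrees of freedom, ended both calls, and leaving out 260 min also ended that of RPL6B. The other genes that passed are described here after their values were seen. Those with the largest folds between 230 and 260 min were RPL27B (19.2-fold), RPL22A (18.3-fold), RPL12A (15.5-fold) and RPL16A (14.5-fold). RPL9B passed with a fold of only 5.53-fold, with a fitted range of 2.16 ± 0.48 (adjusted p = 0.0417). RPL16A ran from 74.4 to 1123 RPKM and had a fitted range of 3.33 ± 0.72 (limma adjusted p = 0.0294). RPL14B ran from 88.9 to 999 RPKM, with a range of 2.84 ± 0.64 (adjusted p = 0.0356).

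The A and B copies were then compared in 35 pairs, with the mean of log2(A/B) over the 12 libraries taken from a limma fit over all 59 A/B pairs of both subunits and p-values adjusted over the 59. The A copy was the higher in 16 pairs and the B copy in 18, with an adjusted p under 0.05 in these 34 of 35, against 93.2% of all 59 pairs. In 12 pairs the A copy was higher in all 12 libraries, in 12 the B copy was, and in 11 the order changed between libraries. Most differences were modest, with a median of 1.42-fold between the higher and the lower copy. In 8 pairs the difference was at least 2-fold.

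These levels depend on what was divided by. Copies of a pair can differ in intron length. They make proteins of like length, so reads were also compared without dividing by span, an alternative chosen after the data were seen. By reads 34 pairs again differed, 33 of them in the same direction as by RPKM. RPL2, a protein of the catalytic centre, turned, from 0.04 ± 0.04 (limma adjusted p = 0.325) by RPKM to -0.32 ± 0.04 (adjusted p = 1.58e-05) by reads. RPP1 shrank from 1.08 ± 0.02 to 0.13 ± 0.02, and RPL42 lost its call (-0.02 ± 0.03, adjusted p = 0.577). How many reads that fit both copies went to each is not given in the sources used here, and sharing of reads between near-identical copies was not tested.

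**Figure D4:**
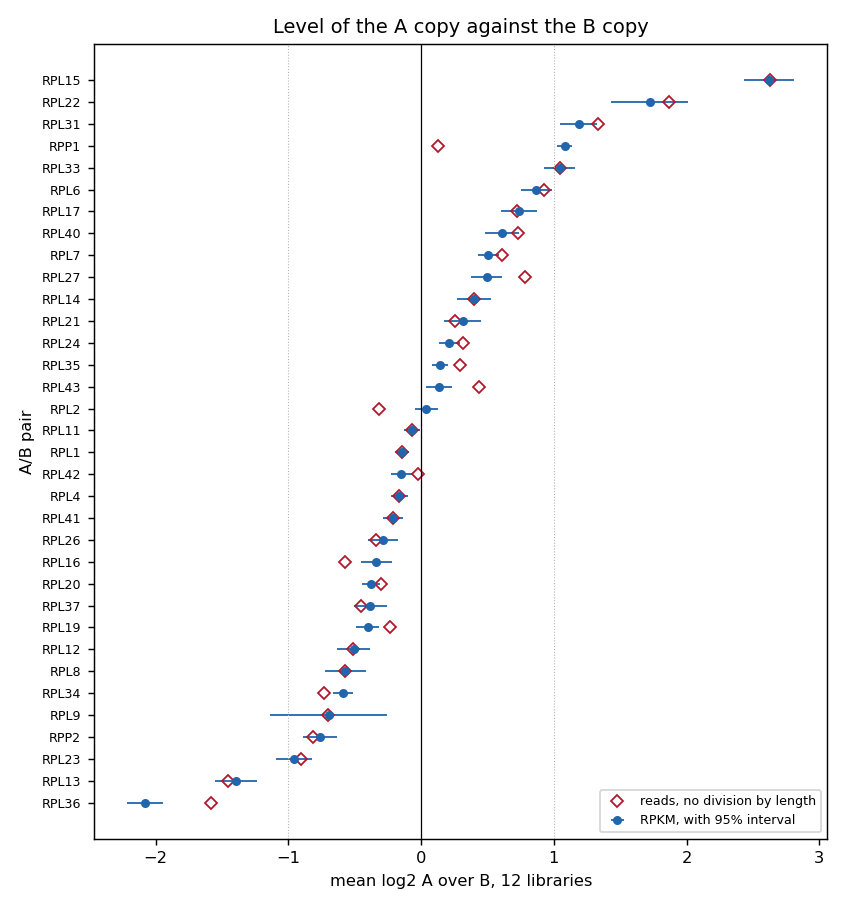
Mean log2 of the A over the B copy in 12 libraries for 34 pairs, from RPKM (filled circles, with 95% intervals from the scatter about the curve) and from reads with no division by length (open diamonds). Pairs to the right of 0 have more of the A copy, and dotted lines mark 2-fold. RPL15 is the farthest to the right, at 2.62, and RPL36 the farthest to the left, at -2.08.

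The most unequal pair was RPL15, whose protein joins the early pre-subunit, and there the A copy (YLR029C, chromosome XII, 201976 to 202590) dominated at 422, 4449 and 459 RPKM at 20, 230 and 260 min. The B copy (YMR121C, chromosome XIII, 509734 to 510348) had 108, 524 and 97.6 RPKM. The mean log2 ratio was 2.62 ± 0.08 (limma adjusted p = 8.54e-10), and both spans are 615 bases, so length does not enter. In RPL36 the B copy led, with a mean of -2.08 ± 0.06 by RPKM (adjusted p = 4.16e-10) and -1.58 ± 0.06 by reads. RPL22A led RPL22B by 1.72 ± 0.12 (adjusted p = 3.45e-07). In each of these 3 pairs the same copy was higher in 12 of 12 libraries.

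By RPKM, the most equal pairs were RPL2, RPL11, RPL43 and RPL35. By reads they were RPL42, RPL11, RPP1 and RPL1, with means of -0.02, -0.07, 0.13 and -0.15. RPL2A exceeded RPL2B in 8 of 12 libraries by RPKM and in 0 by reads, with a 95% interval of -0.05 to 0.13 for the mean log2 ratio by RPKM. For RPL11, whose protein binds beside RPL5, the interval was -0.12 to -0.01 (limma adjusted p = 0.0227, and 0.0727 without 110 min). RPL43A, one of the zinc-binding proteins, exceeded RPL43B in 9 libraries (0.14 ± 0.04, adjusted p = 0.0114), and RPL35A exceeded RPL35B in 10 (0.14 ± 0.03, adjusted p = 0.00044). By reads the last 2 means were 0.44 ± 0.04 and 0.29 ± 0.03.

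Copies of a pair could also differ in how strongly they moved. The A/B ratio varied over the course in 11 of 35 pairs (limma, adjusted over 59 pairs), against 42.4% of all 59 pairs and 14 of the 24 small-subunit pairs. The 11 were RPL6, RPL7, RPL12, RPL13, RPL27, RPL31, RPL33, RPL34, RPL35, RPL36 and RPL42. A scaling between libraries cancels in the ratio. The count was 12 with 5 degrees of freedom and 0 with 3 (8 at an unadjusted p of 0.05, limma), where 28 and 0 of all 59 pairs passed. Single libraries moved it too. It was 0 without 260 min (9 at an unadjusted p of 0.05, limma), 3 without 230 and 4 without 210, 220 or 240. It was 5 without 200, 6 without 60 and 7 without 180 min. Of all 59 pairs, 0, 5, 11, 7, 10, 14, 16 and 19 passed in these fits, in that order. The count of large-subunit pairs was 22 without 0 and 19 without 20 min, where 42 and 37 of all 59 passed.

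RPL13 had the widest fitted range of ratio with 4 degrees of freedom. RPL13A (YDL082W, chromosome IV, 308424 to 309388) had 226, 67.6, 170.3, 201, 194, 253, 290.4, 433, 836, 932, 594 and 34.5 RPKM in time order. RPL13B (YMR142C, chromosome XIII, 550206 to 551207) had 783, 271, 446, 520.0, 504, 633, 657, 867, 1167, 1535, 1259 and 285 RPKM. The B copy was higher in every library, but the relative gap was narrowest at 220 min and widest at 260 min. RPL13A made up 20.0% of the pair at 20 min and 41.7% at 220 min. Its share was 37.8% at 230 min, where both copies were highest, and 10.8% at 260 min. At 260 min RPL13A was 27.0-fold below its level at 230 min and RPL13B 5.38-fold. The fitted range of the log2 ratio was 2.23 ± 0.27 (limma adjusted p = 0.00258).

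RPL6 did the same with the letters exchanged. RPL6A (YML073C, chromosome XIII, 123227 to 124172) had 512, 169, 283, 345, 352, 402, 414, 588, 854, 1094, 886 and 158 RPKM in time order. RPL6B (YLR448W, chromosome XII, 1028854 to 1029768) had 205, 70.6, 145, 215, 204, 240.1, 271, 397, 746, 900.4, 512 and 32.3 RPKM. RPL6A was higher in every library, and its share of the pair was 53.4% at 220 min and 83.0% at 260 min. At 260 min RPL6B was 27.8-fold below its level at 230 min, the largest such fold of all 81 genes, and RPL6A 6.90-fold. The ratio had a fitted range of 1.88 ± 0.20 (adjusted p = 0.00258). The ratio courses of RPL13 and RPL6 each passed in 16 of 18 alternatives, and both missed with 3 degrees of freedom (limma adjusted p = 0.161) and without 260 min.

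RPL9, beside the site where translation factors bind, had the widest fitted range of ratio after RPL13 with 4 degrees of freedom but missed the threshold (2.12 ± 0.56, limma adjusted p = 0.0731), and it is named because of its values. It passed in 4 of 18 alternatives, which were 5 degrees of freedom, order in place of minutes, and the fits without 0 or 20 min. With 5 degrees of freedom its range was 2.91, above that of RPL13 at 2.39, and between libraries its log2 ratio spanned 3.05, against 2.53 for RPL13. RPL9A (YGL147C, chromosome VII, 227754 to 228329) had 639.8, 99.1, 171, 237, 301, 383, 485, 781, 1523, 2434, 1616 and 98.2 RPKM in time order. RPL9B (YNL067W, chromosome XIV, 499681 to 500256) had 599, 468, 632, 605, 733, 772, 731, 958, 1448, 1372, 1062 and 248 RPKM. The B copy was the higher from 20 to 210 min and at 260 min, and the A copy was the higher at 0, 220, 230 and 240 min. The share of RPL9A in the pair was 17.5% at 20 min, 51.3% at 220 min and 60.3% at 240 min. At 260 min RPL9A was 24.8-fold and RPL9B 5.53-fold below the level at 230 min. At 20 min they were 6.46-fold and 1.28-fold below the level at 0 min. Both spans are 576 bases.

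The other 6 of the 8 pairs with the widest called ratios had narrower ranges, and the folds given are those of the level at 230 over that at 260 min. In RPL31, at the rim of the exit tunnel, the fold was 17.4 for the B copy and 8.78 for the A copy (ratio range 1.01 ± 0.24, limma adjusted p = 0.0432). In RPL36 it was 11.2 for the A copy and 5.93 for the B copy (range 1.08 ± 0.23, adjusted p = 0.0291). In RPL12, a protein at the base of the stalk, it was 15.5 for the A copy and 8.34 for the B copy (range 0.91 ± 0.21, adjusted p = 0.0324). In all 3 of these pairs the copy with the lower mean had the larger fold.

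In RPL27 the fold was 19.2 for the B copy and 13.3 for the A copy (ratio range 0.97 ± 0.19, limma adjusted p = 0.0247). In RPL33 it was 11.0 for the B copy and 7.32 for the A copy (range 0.71 ± 0.20, adjusted p = 0.0468). RPL42, near the exit site of transfer RNA, had copies of nearly equal level around the peak. RPL42A was 49.1% of the pair at 220 min and 38.0% at 260 min (range 0.70 ± 0.13, adjusted p = 0.012). The ratio calls of RPL42 and RPL27 held in 15 and 14 of 18 alternatives, and those of RPL36, RPL12, RPL31 and RPL33 in 10, 9, 6 and 4.

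**Figure D5:**
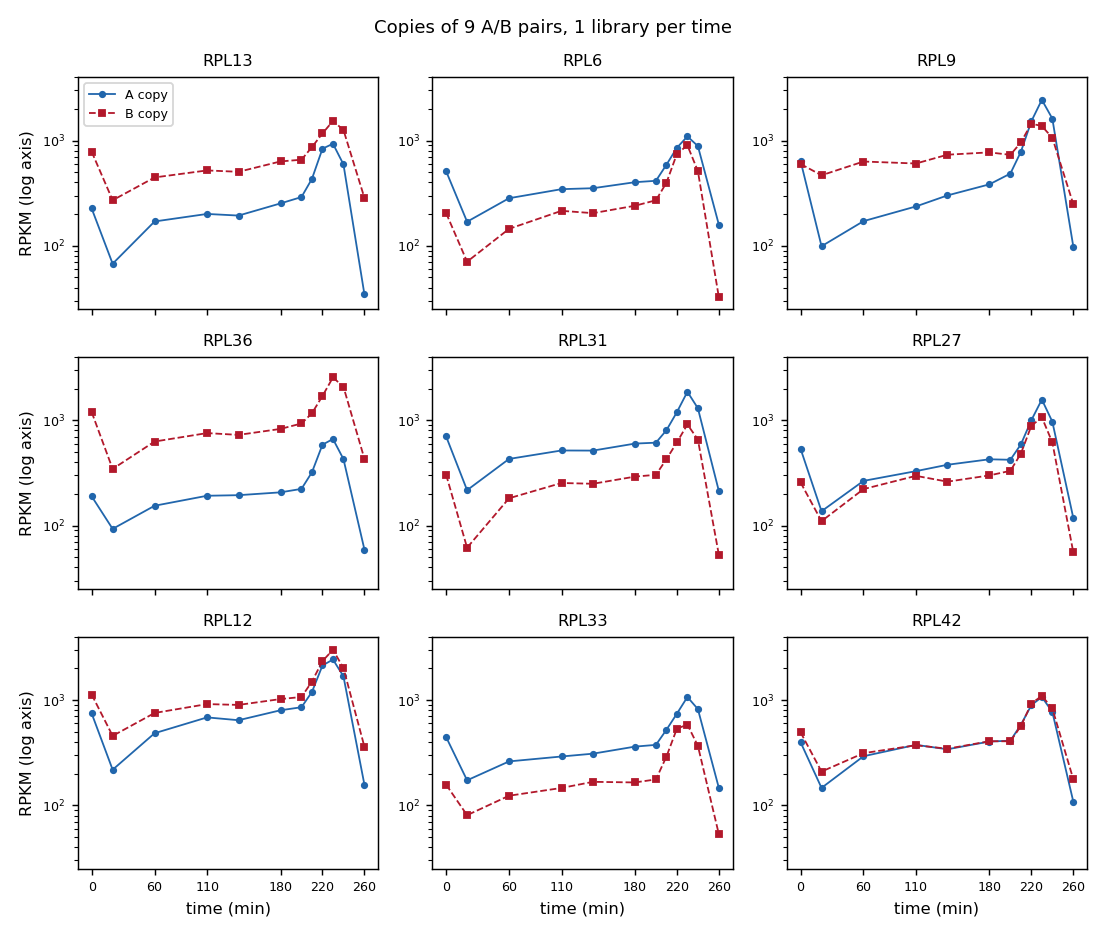
RPKM on a log axis against the time of sampling in minutes for the A copy (solid, circles) and the B copy (dashed, squares) of 9 pairs, 1 library per time. They are the 8 pairs with the widest called change of ratio and RPL9, which did not pass. In RPL13 the A copy drops from 932 to 34.5 RPKM between 230 and 260 min, and in RPL9 the lines cross.

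Over all 35 pairs, the copy with the lower mean had the larger fold of 230 over 260 min in 25 and the copy with the higher mean in 10. The mean is over all 12 libraries, 260 min among them. A lower value at 260 min therefore also lowers the mean, and these counts are no test. The ratio of the copies differed over 1.5-fold between 230 and 260 min in 15 pairs. It differed over 2-fold in 4, which were RPL6, RPL8, RPL9 and RPL13. Of these 4 pairs, RPL8 alone had the larger fold in its more abundant copy, 22.0 for RPL8B and 10.3 for RPL8A (ratio range 0.66 ± 0.27, limma adjusted p = 0.103). RPL8B had the fourth widest fitted range of all members, 3.56 ± 0.93 (adjusted p = 0.0565). RPL22A and RPL22B had folds of 18.3 and 18.0. At 20 min they were 3.74-fold and 1.16-fold below the level at 0 min, and their ratio course did not pass (0.97 ± 0.49, adjusted p = 0.354). RPL40, made as a fusion with ubiquitin, had an A copy with a fitted range among the 4 narrowest, 1.47 ± 0.46 (adjusted p = 0.124).

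Among the proteins around the exit tunnel, described for their place after their values were seen, pairs differed in how alike their copies were. RPL4, which reaches into the tunnel, had copies of like level, RPL4A at 199 to 1840.0 RPKM (median 672) and RPL4B at 249 to 1977 RPKM (median 757). The B copy was higher in 12 of 12 libraries, but by little (-0.16 ± 0.03, limma adjusted p = 0.000218). RPL19, at the tunnel rim and in a bridge between the subunits, also had the B copy higher in 12 of 12 libraries, by more than in RPL4. The A copy had 189 to 1317 RPKM (median 539.8) and the B copy 214 to 1856 RPKM (median 750.2). The mean was -0.40 ± 0.04 by RPKM (limma adjusted p = 2.14e-06) and -0.23 ± 0.04 by reads. The fitted ratio range of RPL19 was 0.11 ± 0.11 (adjusted p = 0.904).

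RPL17, of the tunnel wall, had 223 to 1890.0 RPKM (median 648) for the A copy and 88.5 to 1366 RPKM (median 408) for the B copy, and RPL17A was higher in 12 of 12 libraries (0.74 ± 0.06, limma adjusted p = 7e-07). The fold of 230 over 260 min was 8.18 for RPL17A and 15.4 for RPL17B. RPL26, at the rim, had 94.6 to 887 RPKM (median 294) for the A copy and 79.7 to 1277 RPKM (median 374) for the B copy, with folds of 9.37 and 16.0. There the copy with the higher mean had the larger fold. Neither ratio course passed (ranges 0.68 ± 0.23 and 0.70 ± 0.19, adjusted p = 0.146 and 0.0607).

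RPL35, where newly made proteins meet targeting factors, had 189 to 1268 RPKM (median 434) for the A copy and 149.7 to 1236 RPKM (median 403) for the B copy, with folds of 6.72 and 8.14. Its ratio course passed with a narrow range (0.34 ± 0.09, limma adjusted p = 0.0459) and held in 6 of 18 alternatives. In RPL31, RPL31A had 212 to 1864 RPKM (median 607) and RPL31B 52.6 to 912 RPKM (median 297).

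Members lie on 14 of the chromosomes, and 2 pairs of members are direct neighbours in the annotation. RPL13A and RPP1A on chromosome IV face each other across 413 bases. Their levels at 230 min were 27.0-fold and 6.85-fold those at 260 min. RPL24A and RPL30 on chromosome VII point away from each other across 1156 annotated bases, with 6.36-fold and 8.77-fold. The library kit named in the labels does not mark the strand, and 2 members hold another annotated gene, the small nucleolar RNA genes SNR39 in RPL7A and SNR59 in RPL7B.

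A fixed list of genes that serve the same subunit without being part of it had a wider median range. Of 20 dedicated chaperones and late assembly or export factors, 19 were matched and 18 of these varied (limma, background 20.7% of all genes), with a median fitted range of 4.81 against 2.35 for the large-subunit genes. The count was 14 without 210, 5 without 220, 8 without 230 or 240 and 13 without 260 min. It was 0 with 3 degrees of freedom (16 at an unadjusted p of 0.05, limma). In these fits, in that order, 9.52, 4.36, 5.23, 4.27, 12.8 and 2.23% of all genes passed. Of the 19 chaperones and factors, 16 were highest at 220 min, as were 17.5% of all genes. ALB1, a factor that travels with the pre-subunit, had 7.34 RPKM at 20 min, 434 at 230 min and 3.22 at 260 min (range 5.80 ± 0.94, adjusted p = 0.00612). NOG1, a GTPase of assembly, had 4.64 RPKM at 20 min, 519 at 220 min and 4.64 at 260 min (range 5.63 ± 0.84, adjusted p = 0.00422). REH1 did not pass (range 0.31 ± 0.23, limma adjusted p = 0.737), and TIF6 passed with a range of 1.90 ± 0.46 (adjusted p = 0.0261). Both ranges were below the median of the large-subunit genes.

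Of 7 regulators of ribosomal protein genes, 1 passed (14.3%, limma), against 20.7% of all genes. At an unadjusted p of 0.05 there were 5 (71.4%), against 40.8% of all genes. The gene that passed was IFH1, the coactivator brought to these promoters by Fhl1. It had 6.86 RPKM at 20 min, 140.3 at 220 min and 3.36 at 260 min (range 3.96 ± 0.64, limma adjusted p = 0.00685). It missed with 3 degrees of freedom (adjusted p = 0.164) and in the fits without 230, 240 or 260 min. CRF1, a corepressor that competes with Ifh1, had 126 RPKM at 20 min, 11.1 at 230 min and 139.8 at 260 min, and missed the threshold (range 3.36 ± 0.88, adjusted p = 0.0999), though it passed in 6 of 21 alternatives. Its lowest library was the one in which 75 of the 81 large-subunit genes were highest. RAP1, FHL1, SFP1, HMO1 and SCH9 had fitted ranges of 0.68 to 1.37 and did not pass. Of these, RAP1 passed in 9 of 21 alternatives, SCH9 in 4 and SFP1 in 2.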

How the data were processed

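Values are from the 12 RNA-seq libraries, and the MNase-seq data were not used here. RNA came from a hot phenol extraction and libraries from the NEBNext Ultra RNA kit, per the labels' protocols. The submitters' processing notes name Bowtie2 and R64, the latter the genome of another laboratory strain, but no counter or annotation is stated. The authors deposited a table of signal per gene, headed RKPM, and a table giving each gene as a fraction of its highest library, which was not used beyond a check. Multiplied by the gene span less 1 base, 99.45 to 99.51% of the deposited signal values above 0 fell within 0.01 of a whole number of covered bases, and 1.74 to 2.27% did with the whole span. The signal is therefore covered bases per kilobase, scaled to library size. Between 5 and 16 genes per library lay at exactly 50 bases and at most 4 at any other number from 20 to 80, so the signal was divided by 50 to give RPKM. This rests on the values alone. For RPL24A, RPL24B, RPL29 and RPL32 whole bases came with spans of 931, 867, 514 and 726, longer than annotated. Of 6562 genes, 5891 matched the annotation, and 4 lines of the table were empty.

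The 6493 genes averaging 1 RPKM or more entered limma 3.58.1 in R 4.3.3, with log2(RPKM + 1), a natural spline and a trend in the variance, leaving 7 residual degrees of freedom. Fold changes on this scale understate those of low genes. Pair ratios were fitted likewise without the trend. Adjustment was by Benjamini-Hochberg. Both fits were tested on simulated data. The members named were the 4 widest, narrowest, highest and lowest, all without a copy, the P stalk, up to 8 pairs with called ratios, and the 4 most and least equal pairs, of which 1 is not reported here or drawn among the pairs. Other members are described after their values were seen, as the text says where it does so. Members, lists and tests were chosen with earlier results of these data known. Alternatives were 3 or 5 degrees of freedom, pseudocounts of 0.1 and 10, order in place of minutes, no filter, other scalings, no moderation, reads in place of RPKM and leaving out each library.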

Additional observations from a re-analysis of the deposited data

How the results depend on the processing

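The number of large-subunit genes that varied, 14, became 0 with 3 degrees of freedom (0 at an unadjusted p of 0.05, limma) and 78 with 5. It was 47 (58.0%) when times were replaced by their order and 28 (34.6%) with quantile normalization. In these fits, in that order, 2.23, 39.9, 40.9 and 27.6% of all genes passed, against 20.7% in the reported fit. The count of members was 12 to 20 (14.8 to 24.7%) with the other pseudocounts, no filter, median-ratio scaling or the unscaled signal. There 18.9 to 26.7% of all genes passed. Leaving out single libraries gave 0 to 79 members and 4.27 to 51.0% of all genes. The number of pairs whose ratio varied, 11, became 0 with 3 degrees of freedom, 7 with a pseudocount of 10 and 7 without moderation of the variance (16 at an unadjusted p of 0.05, limma, in the reported fit and 8 with 3 degrees of freedom). Of all 59 pairs, 25 passed in the reported fit and 0, 20 and 17 in these alternatives. Leaving out single libraries gave 0 to 22 of the 35 pairs and 0 to 42 of all 59. The cause of these moves was not tested. Pairs of unequal mean level numbered 33 to 35 in every alternative run. By reads in place of RPKM, the mean log2 ratio of RPL2 reversed to -0.32. With median-ratio scaling, which shifts the libraries by -0.21 to 0.28 on the log2 scale, the median step from 180 to 200 min reversed to -0.011 and that from 210 to 220 min moved to 0.86. The other steps stayed within 1 SD over genes. Rescaling to coding exons was not run, because exon lengths were not used here. No paired analysis was possible because each time point has 1 library. Every member had 63.6 reads or more in every library, and the single library per time limits every value.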
